A study of Homo sapiens with 6 samples.

Results

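The polyol and hexosamine pathways were examined through 10 enzyme genes of the 29483 genes in the expression table. They were chosen by name and function, with earlier results of these data known. AKR1B1, SORD and KHK carry glucose through sorbitol and fructose. GFPT1, GFPT2, GNPNAT1, PGM3 and UAP1 make UDP-GlcNAc, and OGT and OGA attach O-GlcNAc to proteins and take it off again. All 10 were among the 13599 genes whose FPKM averaged 0.5 or more over the libraries, and only such genes were tested.

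RNA came from HK-2, a human kidney cell line labelled as renal proximal tubular epithelium, which was immortalised with papillomavirus genes. Every replicate of both groups was kept in 25 mM high glucose (HG) medium for 7 days. The case group (3 replicates) then received 10 μM TEPP-46, an activator of the glycolytic enzyme PKM2, for 1 day, and the control group (3 replicates) did not. No library from low glucose was analysed here, so every value below describes TEPP-46 on top of HG, and the cells are from 1 line. The study describes the 6 replicates as independent, with the 3 of each group treated separately, so p-values measure the spread between cultures of this line. Values are FPKM, the reads of a gene divided by its length and by the reads of its library. Reads counted on genes behind them numbered 18529725, 17823104 and 17281099 in control replicates 1 to 3 and 16616615, 15956941 and 15273488 in case replicates 1 to 3, as recovered from the FPKM values, so every case library had fewer reads on genes than every control library. These sums are not the total reads of the libraries. The factors that scaled the libraries to each other ran from 0.944 for case replicate 1 to 1.04 for control replicate 3.

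Defining markers of the proximal tubule were near 0. Of 8 such markers 7 were in the table, and their FPKM values summed to between 0.238 and 0.493 per library, with GGT1 the most abundant. LRP2, the endocytic receptor megalin, was listed at 0 in 5 of the 6 libraries and at 0.00686 in control replicate 2. Keratins typical of an epithelial line were high, and KRT19 lay between 299.8 and 384.3 FPKM. PAX8, a transcription factor of kidney epithelium, reached no more than 0.194 FPKM. Summed markers of other kidney cells, endothelium, fibroblasts and leukocytes stayed at or below 0.119 FPKM in every library. Of the 9 markers of kidney epithelium and epithelial lines, 7 were tested, 1 fell, 1 rose and 5 were not DE genes, beside 13.2% DE genes over all tested genes. CDH1, an epithelial cadherin, fell (log2(FC) = −0.64, SE 0.11, adjusted p = 0.0156 by limma) and VIM, an intermediate filament gene typical of mesenchymal and cultured cells, rose (log2(FC) = 0.66, SE 0.13, adjusted p = 0.0204 by limma), while KRT18, KRT19 and EPCAM had log2(FC) of 0.02, 0.02 and 0.04. Whether these changes bear on the enzyme genes was not tested, and in bulk RNA fewer cells of a kind and less RNA per cell cannot be told apart.

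As background, aldose reductase draws glucose into the polyol pathway when glucose is high, and sorbitol dehydrogenase then converts sorbitol to fructose. The hexosamine pathway takes fructose-6-phosphate from glycolysis, adds nitrogen from glutamine and an acetyl group, and ends at UDP-GlcNAc, the donor for glycans and for the single sugar that OGT places on nuclear and cytoplasmic proteins. Both routes are studied as branches of glucose use in diabetic kidney cells, upstream of the step that PKM2 catalyses.

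Promoter sequence is shown for 3 genes, because OGT was the DE gene of the set, OGA is its counterpart, and UAP1 lay closest to the threshold among the rest. Each is the 200 bases from 250 to 51 before the most upstream RefSeq start on GRCh38.p14, printed 5′ to 3′ on the gene's strand. Capitals mark every match, on either strand, to the GC box with the letters GGGCGG, to the CCAAT box, to the E box with the letters CACGTG, to CCACG as found in unfolded protein response elements, or to TGATGNAA as found in elements of the integrated stress response.
OGT (chrX:71532854-71533053, plus strand): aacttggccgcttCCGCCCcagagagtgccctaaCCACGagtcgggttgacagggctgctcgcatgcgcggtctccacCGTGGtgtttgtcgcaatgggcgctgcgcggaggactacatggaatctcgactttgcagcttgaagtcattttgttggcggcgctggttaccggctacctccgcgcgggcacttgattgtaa
OGA (chr10:101818495-101818694, minus strand): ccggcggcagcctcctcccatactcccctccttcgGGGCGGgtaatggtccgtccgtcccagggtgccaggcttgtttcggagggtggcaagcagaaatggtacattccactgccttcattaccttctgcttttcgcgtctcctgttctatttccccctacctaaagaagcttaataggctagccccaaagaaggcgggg
UAP1 (chr1:162561281-162561480, plus strand): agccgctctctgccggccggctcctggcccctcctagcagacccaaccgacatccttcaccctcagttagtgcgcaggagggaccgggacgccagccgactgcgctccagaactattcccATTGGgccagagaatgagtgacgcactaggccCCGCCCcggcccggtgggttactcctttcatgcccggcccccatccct
The OGT window held 1 GC box and 2 CCACG matches, the OGA window held 1 GC box, and the UAP1 window held 1 GC box and 1 CCAAT box. RefSeq windows were matched for 8 of the 10 genes, which left SORD and KHK without one. The GC box was present in 7 of the 8 and in 34.5% of 27305 promoter windows, CCAAT in 3 of 8 and 28.3%, and CCACG in 3 of 8 and 27.3%. CACGTG and TGATGNAA were found in 0 of the 8 windows, against 4.66% and 2.58% of all windows. GC content of the windows ran from 47.5% for AKR1B1 to 80.5% for GNPNAT1, beside a median of 56.5% over all windows. Letters that match a motif are a description of the sequence and not a binding site.

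Levels of the 10 genes spanned a wide range in these cells. AKR1B1 was the highest in the control group at 177.3 ± 2.96 FPKM (SD, n = 3), followed by UAP1 at 89.3 ± 3.12. SORD at 18.2 ± 0.795 and GFPT2 at 18.1 ± 1.19 could not be separated by their ranges, and GFPT1 followed at 15.4 ± 0.544. GNPNAT1 at 13.7 ± 0.880 and OGA at 13.3 ± 0.660 overlapped as well. OGT stood below them at 7.57 ± 0.225, and KHK at 3.21 ± 0.475 and PGM3 at 2.95 ± 0.272 closed the order with overlapping ranges. In the case group AKR1B1 at 168.2 ± 14.04 and UAP1 at 102.2 ± 9.10 still led, with no overlap between them. GFPT2 followed, with no overlap with SORD below it. SORD, OGA, GFPT1 and GNPNAT1 came next, with overlap between neighbours in this order. Below them stood OGT, PGM3 and KHK with no overlap.

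**Figure D1:**
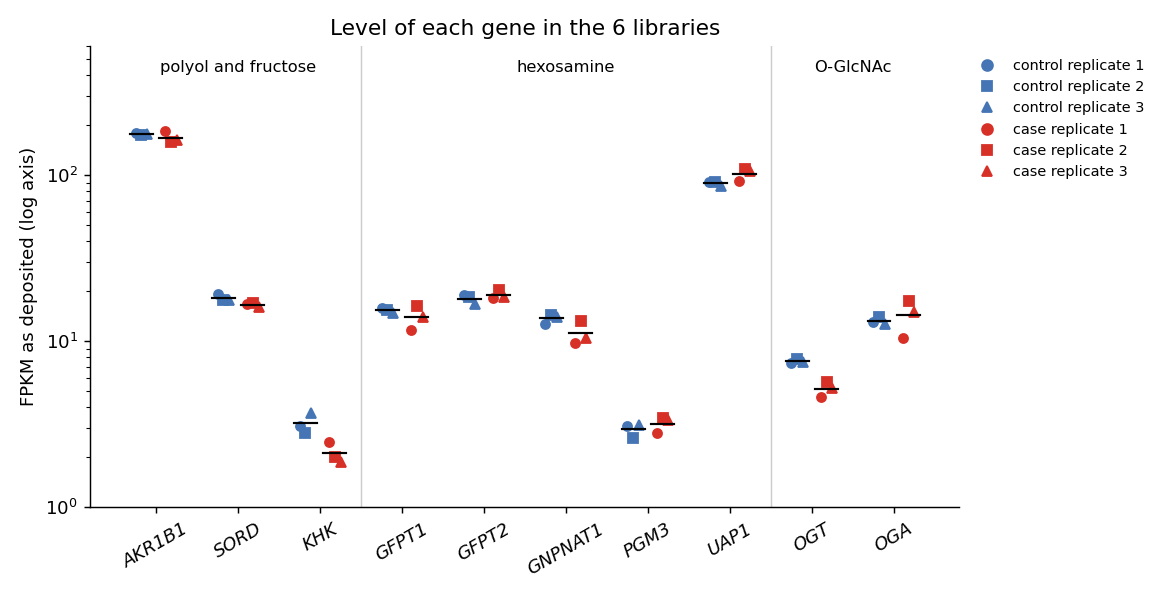
FPKM as deposited (log axis) of the 10 enzyme genes in 3 control (blue) and 3 case (red) libraries, each point a library with its replicate given by the marker, and the black line the group mean. AKR1B1 and UAP1 stand far above the rest, and the case points of OGT, KHK and SORD lie below all their control points.

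Of the 10 genes, 1 was a DE gene, meaning an adjusted p of at most 0.05 by limma over all tested genes. OGT was downregulated, and 0 of the 10 were upregulated. Over all 13599 tested genes, 13.2% were DE genes, 7.34% upregulated and 5.84% downregulated, so 1 of 10 is near the background. The same test at an unadjusted p under 0.05 gave 3 of the 10, beside 33.1% of all tested genes. After scaling, the 2 groups were separate, with no overlap, for 4 of the 10, namely KHK, GFPT2, UAP1 and OGT, beside 39.9% of all tested genes. The median log2(FC), case minus control, was −0.03 over the 10 genes and −0.00 over all tested genes. The call on OGT is qualified further on, because it was lost when gene length was taken into account.

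**Figure D2:**
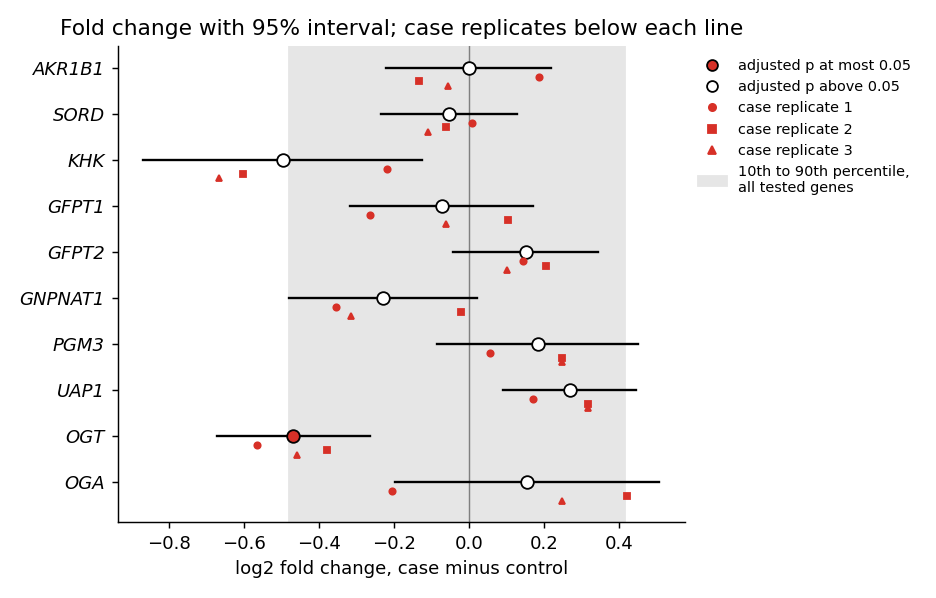
The log2 fold change of each gene (case minus control) on the x axis with its 95% interval by limma, with the 3 case replicates relative to the control mean as small markers below, over a grey band from the 10th to the 90th percentile of all tested genes (−0.48 to 0.42). The filled point of OGT is the DE gene, and KHK and UAP1 have intervals that leave out 0 without an adjusted p at or below 0.05.

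AKR1B1 encodes aldose reductase, which reduces glucose to sorbitol, and lies at chr7:134442356-134459284 on the minus strand of GRCh38. Its FPKM was 180.6, 174.9 and 176.3 in the control libraries and 184.2, 157.9 and 162.5 in the case libraries. Case replicate 1 was the highest of the 6 and the other case libraries were the lowest, so the groups overlapped. On the log2(FPKM + 0.1) scale after scaling between libraries, log2(FC) was −0.00 with a 95% interval from −0.22 to 0.22 (SE 0.10, adjusted p = 0.99 by limma). Reads numbered 9135 to 12318 per library, the most among the 10 genes. Under quantile normalization, log2(FC) was −0.23 and passed the threshold (adjusted p = 0.0434 by limma).

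SORD encodes sorbitol dehydrogenase, the second step. Its FPKM was 19.1, 17.7 and 17.8 in the control libraries and 16.7, 17.1 and 16.1 in the case libraries. Every case value was below every control value as deposited, but the groups overlapped after scaling, with log2(FC) of −0.05 (SE 0.08, adjusted p = 0.664 by limma). Part of SORD is shared with its pseudogene SORD2P (12.6% of its 64-base windows), which had FPKM from 0.980 to 1.32, so reads in those stretches could be split between the 2 genes.

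KHK encodes ketohexokinase, which phosphorylates the fructose that the polyol pathway yields. Its FPKM was 3.10, 2.79 and 3.72 in the control libraries and 2.48, 2.02 and 1.87 in the case libraries. All 3 case libraries were below all 3 control libraries. log2(FC) was −0.50 with a 95% interval from −0.87 to −0.13 (SE 0.16, adjusted p = 0.0769 by limma), so KHK was not a DE gene. It rests on 88 to 198 reads per library, the fewest among the 10 genes, and it passed the threshold under 5 of 18 alternatives, among them FPKM as deposited (adjusted p = 0.0493 by limma) and the correction for gene length described below (0.0495). KHK overlaps CGREF1 on the opposite strand (12.9% of its windows), a gene at 7.27 to 9.16 FPKM, and the sources used here do not state whether counting used the strand.

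Within each library AKR1B1 was about an order of magnitude above SORD. The ratio of their FPKM values was 9.43, 9.86 and 9.91 in the control libraries and 11, 9.25 and 10.1 in the case libraries. The difference of the log2 ratio was 0.05 (exact two-sided permutation p = 0.5, 3 against 3), with overlapping groups. Added up, the 3 polyol genes gave 202.9, 195.5 and 197.8 FPKM in the control libraries and 203.4, 177.0 and 180.4 in the case libraries, most of it AKR1B1.

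GFPT1 and GFPT2 encode the glutamine:fructose-6-phosphate amidotransferases that open the hexosamine pathway and set its pace. GFPT1 had 15.9, 15.5 and 14.8 FPKM in the control libraries and 11.7, 16.2 and 14.1 in the case libraries. Case replicate 1 was the lowest and case replicate 2 the highest of all 6, and log2(FC) was −0.07 (SE 0.11, adjusted p = 0.661 by limma). GFPT2 had 18.97, 18.5 and 16.7 FPKM in the control libraries and 18.2, 20.4 and 18.4 in the case libraries. Its groups overlapped as deposited and separated after scaling, with log2(FC) of 0.15 (SE 0.08, adjusted p = 0.245 by limma).

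A ratio within a library does not depend on scaling between libraries. The ratio of GFPT1 to GFPT2 was 0.839, 0.838 and 0.888 in the control libraries and 0.643, 0.797 and 0.763 in the case libraries. All case ratios were below all control ratios, by 0.23 on the log2 scale on average, with an exact two-sided permutation p of 0.1, the smallest that 3 against 3 allows. Without case replicate 1 the difference was −0.13. GFPT1 is the longer of the pair, with 8866 bases behind its FPKM against 4780 for GFPT2. The difference between their fitted log2(FC) values was −0.22, and it was −0.06 after the correction for gene length described with OGT and −0.13 after that for GC content.

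GNPNAT1 encodes the acetyltransferase that follows. Its FPKM was 12.7, 14.4 and 14.04 in the control libraries and 9.78, 13.2 and 10.47 in the case libraries. Case replicate 2 lay inside the control range and the other case libraries below it, and log2(FC) was −0.23 (SE 0.11, adjusted p = 0.181 by limma). Without case replicate 2 it was −0.34 and passed the threshold (adjusted p = 0.0316 by limma). An antisense lncRNA covers 28% of the GNPNAT1 windows, so its value has the same limit of strand as KHK.

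PGM3 encodes the mutase that moves the phosphate of GlcNAc. Its FPKM was 3.08, 2.63 and 3.12 in the control libraries and 2.79, 3.43 and 3.34 in the case libraries. The groups overlapped, and log2(FC) was 0.18 (SE 0.12, adjusted p = 0.306 by limma). The limit of strand holds for PGM3 too, since DOP1A on the opposite strand, at 0.0907 to 0.332 FPKM, shares 4.73% of its windows.

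UAP1 encodes the pyrophosphorylase that makes UDP-GlcNAc itself, and is on chromosome 1 at chr1:162561722-162601240. Its FPKM was 91.2, 91.1 and 85.7 in the control libraries and 91.9, 108.8 and 106.1 in the case libraries. Case replicates 2 and 3 stood clearly above the control libraries and case replicate 1 only just above them. log2(FC) was 0.27 with a 95% interval from 0.09 to 0.45 (SE 0.08, adjusted p = 0.0558 by limma), just outside the threshold. Reads per library numbered 5120 to 6002, so counting error is small beside the spread of replicates. Under quantile normalization and under TPM, the log2(FC) was 0.08 and 0.07, so the size of the UAP1 difference depends on the scaling. It passed the threshold under 3 of 18 alternatives, among them limma voom on recovered reads (adjusted p = 0.0422). Together the 5 hexosamine genes summed to 141.9, 142.0 and 134.4 FPKM in the control libraries and 134.3, 162.0 and 152.3 in the case libraries, and UAP1 made up most of the sum.

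OGT encodes the single enzyme that adds O-GlcNAc to nuclear and cytoplasmic proteins, and lies at chrX:71533087-71575892 on the plus strand. Its FPKM was 7.41, 7.82 and 7.47 in the control libraries and 4.64, 5.67 and 5.21 in the case libraries. The highest case value was below the lowest control value, and the means were 7.57 ± 0.225 and 5.17 ± 0.517 (SD, n = 3 each). OGT fell by 0.47 on the log2 scale, to 0.723 times the control level, with a 95% interval from −0.67 to −0.27 (SE 0.09, adjusted p = 0.0197 by limma). It ranked 494 by p among the tested genes and rests on 760 to 1376 reads per library. No 64-base window of OGT was shared with another annotated gene.

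Length moved with this result. OGT has 9812 bases behind its FPKM, longer than 90.6% of tested genes, and the longer a tested gene was, the lower its log2(FC) tended to be. In the longest of 10 bins the median was −0.42, −0.12 and −0.29 in case replicates 1, 2 and 3 relative to the control mean. The 1841 tested genes between 7850 and 12265 bases had a median log2(FC) of −0.19, and 12.3% of them were downregulated DE genes and 2.17% upregulated ones. After a smooth term in length was removed from each library, an alternative chosen after the data were seen, the log2(FC) of OGT was −0.27 (SE 0.07, adjusted p = 0.0586 by limma) and the call was lost. It was also lost without any 1 control replicate (adjusted p from 0.0861 to 0.104 by limma) and without case replicate 3 (0.0677), with log2(FC) from −0.48 to −0.45 in these 4 fits. Of all tested genes, 0.529% to 1.29% were DE genes in these fits, beside 13.2% in the main fit. With a smooth term in GC content the adjusted p was 0.00747 by limma. The source of the relation with length was not tested.

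**Figure D3:**
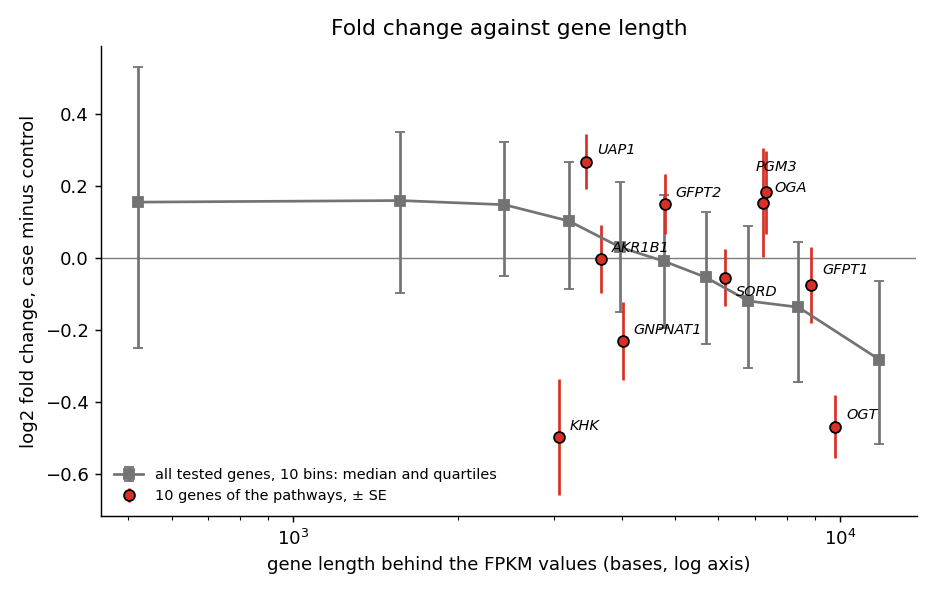
The log2 fold change (case minus control) against the gene length behind the FPKM values (log axis), with all tested genes in 10 bins of equal number as grey squares (median, bars to the quartiles) and the 10 enzyme genes in red (± SE). The bin medians run from 0.16 in the shortest bin to −0.28 in the longest, and OGT lies below the line of medians near its long end, while KHK lies furthest below it.

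OGA encodes the hydrolase that removes O-GlcNAc. Its FPKM was 13.1, 14.03 and 12.7 in the control libraries and 10.52, 17.5 and 15.1 in the case libraries. The case libraries fell on both sides of the control range, replicate 1 below it and replicates 2 and 3 above it. log2(FC) was 0.15 with a 95% interval from −0.20 to 0.51 (SE 0.15, adjusted p = 0.515 by limma), the widest SE of the hexosamine and O-GlcNAc genes. Without case replicate 1 it was 0.34 (adjusted p = 0.0397 by limma), and without case replicate 2 it was 0.02.

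The ratio of OGT to OGA was 0.564, 0.558 and 0.586 in the control libraries and 0.441, 0.325 and 0.346 in the case libraries. Each case library had a lower ratio than each control library, including case replicate 1, in which both genes were at their lowest. The mean ratio was 0.645 times that of the control group, a log2 difference of −0.63 (exact two-sided permutation p = 0.1, the smallest possible). OGA has 7247 bases behind its FPKM, and the difference between their fitted log2(FC) values was −0.62, against −0.55 after the length term was removed.

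**Figure D4:**
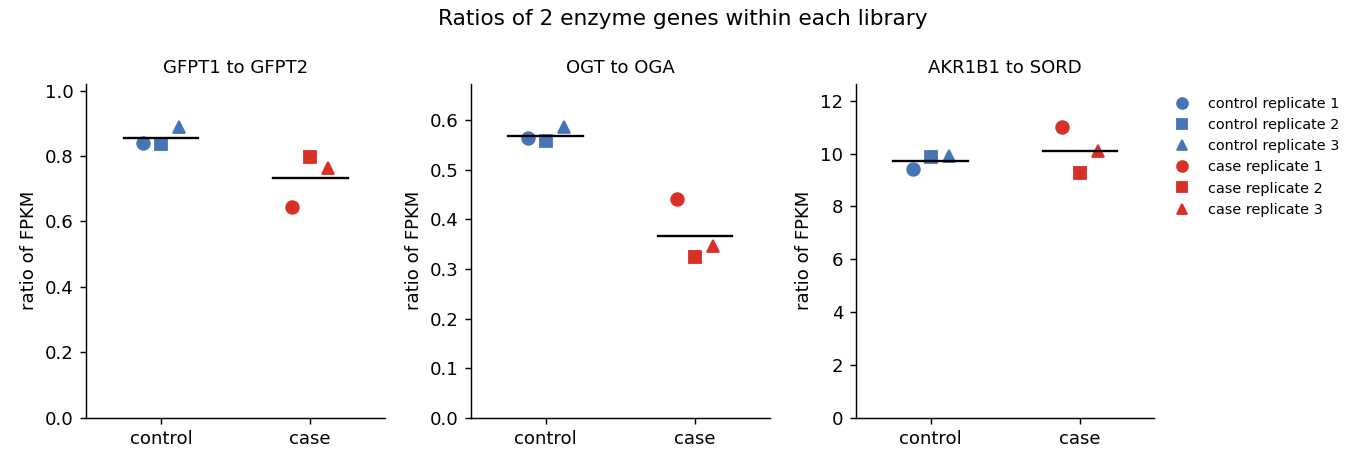
Ratios of FPKM of GFPT1 to GFPT2, OGT to OGA and AKR1B1 to SORD in each library (y axis from 0, no unit), control in blue and case in red, with the line at the geometric mean of the group. The case points lie below all control points for the first 2 ratios and overlap them for AKR1B1 to SORD.

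The SD of the log2 values was larger in the case than in the control group for 7 of the 10 genes, and smaller for SORD, GFPT2 and PGM3. For OGA the SD of the log2 values was 0.07 over control replicates and 0.32 over case replicates, and the same pair was 0.06 and 0.18 for GFPT1, and 0.03 and 0.17 for AKR1B1. Over all tested genes the median SD was 0.0886 and 0.189. Case replicate 1 had the lowest FPKM of all 6 libraries for GFPT1, GNPNAT1, OGT and OGA. Without it, 4 of the 10 genes passed the threshold, with KHK, UAP1 and OGA joining OGT, and 16.7% of tested genes did.

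Genes with the most similar pattern across the 6 scaled libraries were found by Pearson's r among 13598 tested genes, as a description. For AKR1B1 they were RRP9 (r = 0.997), TMEM120A (r = 0.995) and LINC00239 (r = 0.994). UAP1 was most like MCTP1 (r = 0.998), MRM2 (r = 0.996) and MELK (r = 0.995), and OGA was most like RIOK3 (r = 0.998), VEZT (r = 0.993) and ZNF124 (r = 0.988). With only 6 libraries of 2 groups such values are common, and r exceeded 0.95 for 94 genes with AKR1B1, 238 with UAP1 and 70 with OGA.

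Of 11 other polyol, fructose and carbonyl reductase genes, 8 were tested and 0 were DE genes by limma, beside 13.2% of all tested genes, with a median log2(FC) of 0.11. At an unadjusted p under 0.05 they numbered 4 of 8, beside 33.1%. DCXR, which reduces xylulose, was the most abundant, at 48.0 ± 3.62 FPKM in control and 56.5 ± 5.18 in case replicates (log2(FC) = 0.31, SE 0.11, adjusted p = 0.0922 by limma). Of 12 genes of hexosamine salvage and sialic acid synthesis, 10 were tested and 0 were DE genes by limma, beside the same 13.2%, with a median log2(FC) of 0.04. At an unadjusted p under 0.05 there was 1 of 10. CMAS, which activates sialic acid, was the most abundant of them at 25.6 ± 1.06 and 28.5 ± 3.55 FPKM (log2(FC) = 0.22, SE 0.09, adjusted p = 0.14 by limma).

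Users and carriers of UDP-GlcNAc were examined as 20 genes, of which 16 were tested. Of these, 1 was upregulated and 3 were downregulated, beside 7.34% and 5.84% of all tested genes, and the median log2(FC) was −0.05. HAS3, a hyaluronan synthase, fell from 11.3 ± 0.555 to 6.68 ± 1.26 FPKM (log2(FC) = −0.68, SE 0.12, adjusted p = 0.0179 by limma). EXTL3, which acts in heparan sulfate synthesis, fell from 7.56 ± 0.261 to 4.76 ± 0.547 FPKM (log2(FC) = −0.59, SE 0.11, adjusted p = 0.0195 by limma). MGAT5, which branches N-glycans, fell from 9.08 ± 0.522 to 6.29 ± 1.08 FPKM (log2(FC) = −0.46, SE 0.11, adjusted p = 0.0389 by limma). SLC35D2, a Golgi carrier of nucleotide sugars, rose from 11.4 ± 0.233 to 14.2 ± 1.52 FPKM (log2(FC) = 0.39, SE 0.09, adjusted p = 0.029 by limma). After the length term was removed HAS3 remained a DE gene (log2(FC) = −0.64), and the calls on EXTL3 (−0.30), MGAT5 (−0.29) and SLC35D2 (0.28) were lost.

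Of 13 genes of glucose entry and of the fructose-6-phosphate and glutamine supply, 7 were tested, 1 was upregulated and 0 were downregulated, beside 7.34% and 5.84% of all tested genes, with a median log2(FC) of −0.03. SLC1A5, a glutamine transporter, had 83.3, 79.4 and 76.3 FPKM in the control libraries and 125.2, 116.3 and 113.9 in the case libraries. Its groups were far apart, and it rose by a log2(FC) of 0.65 (SE 0.09, adjusted p = 0.00917 by limma). Glutamine is the nitrogen donor of the step that GFPT1 and GFPT2 catalyse, and SLC1A5 also serves the general use of glutamine by cells. Its call held under 16 of 18 alternatives and was lost without control replicate 2 (adjusted p = 0.0586 by limma) and without control replicate 3 (0.0598). In these 2 fits 0.529% and 0.566% of all tested genes were DE genes.

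NFAT5 is the tonicity-responsive factor for which AKR1B1 is a classic target. Of 5 genes of NFAT5 and its osmoprotective targets, 4 were tested, 1 was downregulated and 0 were upregulated, beside 5.84% and 7.34% of all tested genes, with a median log2(FC) of −0.56. NFAT5 itself had 2.24, 2.44 and 2.06 FPKM in the control libraries and 0.522, 1.42 and 0.762 in the case libraries. All 3 case libraries were well below the control libraries, and it fell by 1.26 on the log2 scale (SE 0.29, adjusted p = 0.0305 by limma). The other 3 tested genes had log2(FC) from −0.66 to −0.41 and were not DE genes. They have 8254 to 11621 bases behind their FPKM, where tested genes were lower on the whole, against 3660 for AKR1B1, whose log2(FC) was −0.00. Whether length bears on this contrast was not tested. NFAT5 has 16401 bases behind its FPKM, and with the length term removed its log2(FC) was −0.91 (adjusted p = 0.0367 by limma). The call on NFAT5 was lost with no filter on low values (adjusted p = 0.092 by limma) and with no intensity trend (0.0575). In these fits 1.88% and 6.27% of all tested genes were DE genes.

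Of 7 partners and substrates of OGT, all 7 were tested, 2 were downregulated and 0 upregulated, with a median log2(FC) of −0.43. Of all tested genes 5.84% were downregulated and 7.34% upregulated, and of those near the length of OGT 12.3% and 2.17%. HCFC1, a chromatin cofactor that OGT glycosylates and cleaves, fell from 19.7 ± 1.03 to 12.6 ± 1.65 FPKM (log2(FC) = −0.57, SE 0.11, adjusted p = 0.0213 by limma). PPP1R12A, a myosin phosphatase subunit, fell from 6.51 ± 0.351 to 4.02 ± 1.02 FPKM (log2(FC) = −0.64, SE 0.16, adjusted p = 0.0379 by limma). Both are long, with 9004 and 11815 bases, and both calls were lost with the length term removed, at −0.39 and −0.38.

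Of 4 transcription factors known to act on hexosamine genes, 2 were upregulated and 0 downregulated, beside 7.34% and 5.84% of all tested genes, with a median log2(FC) of 0.34. XBP1, a factor of the unfolded protein response, rose from 49.96 ± 2.45 to 69.7 ± 5.16 FPKM (log2(FC) = 0.56, SE 0.09, adjusted p = 0.015 by limma). ATF4, a factor of the integrated stress response, rose from 299.5 ± 6.70 to 361.2 ± 12.03 FPKM (log2(FC) = 0.35, SE 0.08, adjusted p = 0.0296 by limma). UAP1, GFPT1 and GFPT2 were not DE genes, and whether XBP1 or ATF4 bears on them was not tested. Except SLC1A5, every DE gene named from these 7 lists lost its call without any 1 control replicate and without case replicate 3. Of all tested genes, 0.743%, 0.529% and 0.566% were DE genes without control replicate 1, 2 and 3. Without case replicate 3 the share was 1.29%, beside 13.2% in the main fit, so most calls over all genes were lost there too. The number of alternatives, of 18, under which the call held ran from 9 for SLC35D2 to 16 for SLC1A5, and the sign of each of the 10 genes was the same in all 18. ATF4 was not a DE gene under TPM or quantile normalization, and SLC35D2 was not one under TPM or with FPKM as deposited. With no filter on low values SLC1A5 and XBP1 alone of the 10 were DE genes, and with no intensity trend SLC1A5, XBP1, HAS3 and EXTL3 were. In these 2 fits 1.88% and 6.27% of all tested genes were DE genes.

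**Figure D5:**
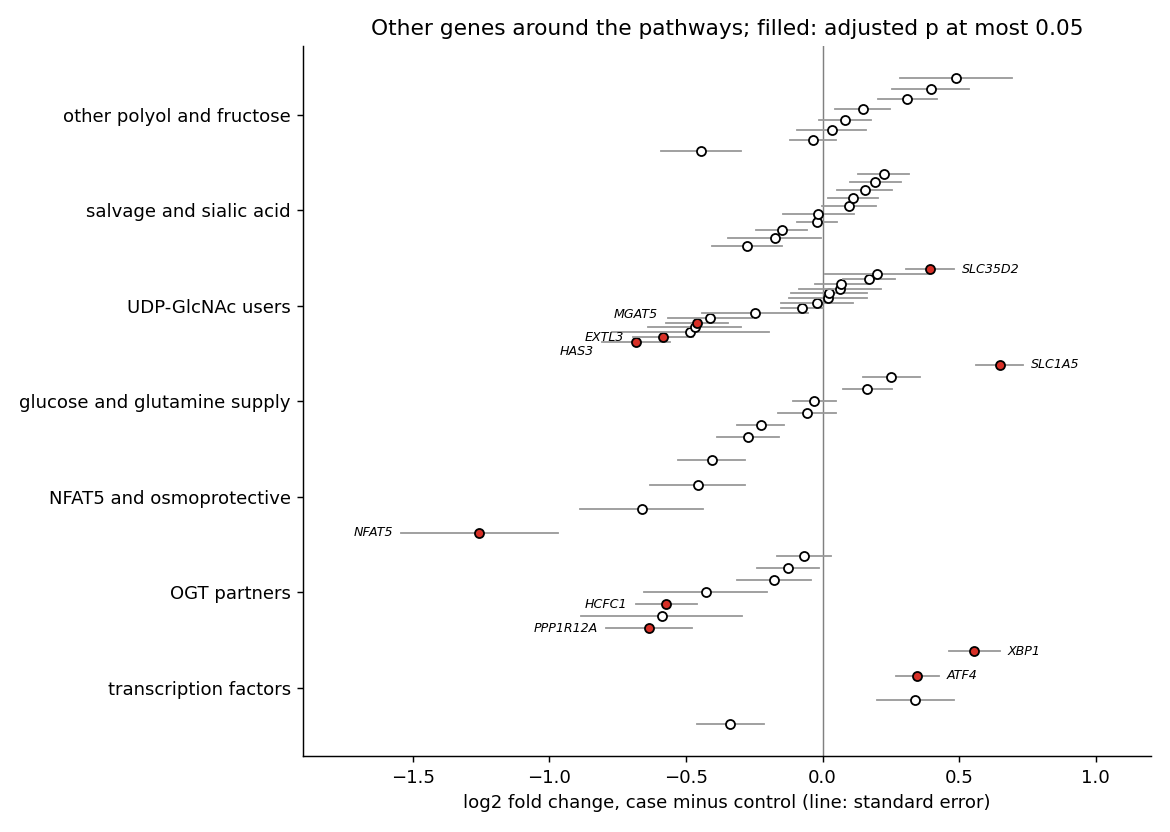
The log2 fold change (case minus control, with the SE as a line) of each tested gene in the 7 lists around the pathways, filled where the adjusted p by limma was at most 0.05. There are 10 filled points, 4 to the right of 0 and 6 to the left, and the lists of other polyol genes and of salvage and sialic acid genes hold 0.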

How the data were processed

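The authors aligned reads to GRCh38.p13 with HISAT2 2.1.0, counted them with HTSeq 0.6.0 and deposited FPKM; RNA selection, strandedness and annotation version are not given in the sources used here. The deposited FPKM values of 6 libraries (3 control, 3 case) were divided by median-of-ratios factors and tested as log2(FPKM + 0.1) with limma 3.58.1 in R 4.3.3, with an intensity trend and no covariate, over the 13599 genes that averaged 0.5 FPKM or more, with Benjamini-Hochberg adjustment. The threshold, an adjusted p of at most 0.05, is that of the study. The pseudocount understates fold changes of low genes. Ratios were compared by exact permutation tests. Whole reads were recovered from FPKM (tolerance 0.01 reads) for 27187 of 27922 genes above 0, and reads on genes are sums over these; the fit by voom used them. Symbols and positions came from GENCODE 44 for 29063 genes and promoters from RefSeq. The procedure was tested on simulated data. All 10 members are named, as is each DE gene of 7 pathway lists or, where a list has none, its most abundant gene; members and lists were chosen with earlier results of these data known.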

Additional observations from a re-analysis of the deposited data

How the results depend on the processing

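Beside 1792 DE genes, 55.7% of them upregulated, the number was 524 (66.2%) with no filter on low values, 852 with no intensity trend, 2764 (13.8%) under TPM, 2753 with voom on recovered reads and 3191 after the GC correction. With FPKM as deposited the number was 1786, of which 37.1% were upregulated. The median log2(FC) of all genes was −0.08 as deposited and −0.20 under TPM, beside −0.00. Without 1 replicate the number lay between 72 and 3452. Leaving out control replicate 1, 2 or 3 gave 101, 72 or 77, leaving out case replicate 3 gave 176, and leaving out case replicate 2 gave 3452. Beside 1 DE gene among the 10, there were 2 with FPKM as deposited, under TPM (KHK and OGT both times), under quantile normalization (AKR1B1 and OGT) and with voom (UAP1 and OGT), 3 after the GC correction (KHK, UAP1 and OGT), and between 0 and 4 without 1 replicate. The 1 after the length correction was KHK (adjusted p = 0.0495 by limma) and not OGT. Signs turned for AKR1B1 with no filter (0.0133), for GFPT2 (−0.0489), PGM3 (−0.0106) and OGA (−0.0442) under TPM, and for SORD (0.0292) and GFPT1 (0.10) after the length correction, none of them a DE gene there. Without 1 replicate, AKR1B1 ranged from −0.0924 to 0.0646 and GFPT1 from −0.163 to 0.0243. KHK, GNPNAT1, UAP1 and OGT kept their direction under all 18 alternatives, and OGT ranged from −0.67 to −0.27. The 3 ratios did not pass a threshold in any setting. For GFPT1 to GFPT2 and OGT to OGA the exact permutation p was 0.1, the smallest that 3 against 3 allows. For AKR1B1 to SORD the groups overlapped (exact permutation p = 0.5), and its difference was −0.01 without case replicate 1. The length and GC corrections were chosen after seeing the data.

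With the replicate number as a block, 1610 genes and 1 of the 10, OGT (adjusted p = 0.031 by limma), passed. For the ratios, pairing cannot alter the mean difference, and the exact sign-flip p was 0.25 for GFPT1 to GFPT2, 0.25 for OGT to OGA and 0.75 for AKR1B1 to SORD, beside 0.1, 0.1 and 0.5 without it. Whether the numbers pair the samples is not stated in the sources used here. Same-numbered libraries correlated at 0.063, 0.10 and −0.053 in their deviations from the group means, and differently numbered ones at −0.182 to 0.117. Not every library correlated best with its own number. With 3 libraries per group such correlations cannot decide whether the samples are paired.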
